A study of Mus musculus with 13 samples.

Results

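Immune checkpoint receptors and their ligands were followed, gene by gene, through the cell types of mouse colon tumors and of the mucosa beside them. The genes were taken by symbol and made up 10 of the 32285 gene rows in the files. They were 5 receptors (Pdcd1, Ctla4, Lag3, Tigit and Havcr2), 4 ligands (Cd274, Pdcd1lg2, Cd80 and Cd86) and Vsir, which acts as both. The study concerned dietary folate and related cofactors in intestinal tumors with an Apc mutation and a p16 epimutation. Single-cell 3′ RNA libraries came from 10 colon tumors (COT) and 3 samples of adjacent mucosa (Adj) of 3 animals. Animal AP1086, aged 20 weeks, gave Adj 1 and COT 1 to 4, animal AP1044, aged 24 weeks, gave Adj 2 and COT 5 to 8, and animal AP1067, aged 23 weeks, gave Adj 3 and COT 9 and 10. All 13 libraries were from C57BL/6J mice that were ApcMin/+; p16cis/cis and ate the supplemented diet, so that both germline alleles and the diet were shared by tumors and mucosa and each comparison was between tissues, never between diets.

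Checkpoint receptors sit mainly on activated T cells and natural killer (NK) cells and dampen their response when a neighboring cell shows the ligand. PD-1, the product of Pdcd1, is engaged by PD-L1 (Cd274) and PD-L2 (Pdcd1lg2), while CTLA-4 outcompetes the co-stimulatory receptor CD28 for CD80 and CD86 on antigen-presenting cells and is held constitutively by regulatory T cells. LAG-3 binds class II histocompatibility molecules, TIGIT binds the poliovirus receptor family, TIM-3 (Havcr2) is found on exhausted T cells as well as on myeloid cells, and VISTA (Vsir) is carried by myeloid cells and resting T cells.

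Cd274 and Pdcd1lg2 lie side by side on chromosome 19 in mouse build GRCm38.p6, Cd274 at chr19:29362107-29388095 and Pdcd1lg2 at chr19:29410919-29472927, with a gap of 22.8 kb. Their promoters, credited to RefSeq on GRCm38.p6, are shown because the neighbors bind the same receptor and because the study turned on promoter CpG methylation, which was not measured in these libraries. The stretches run from 250 bases before to 50 bases after a transcript start, at chr19:29367188-29367487 and chr19:29410669-29410968, both on the plus strand, and capitals mark each CG. The start used for Cd274 lies inside the gene's outer limits given above, and that for Pdcd1lg2 is the first base of the gene.
Cd274 promoter: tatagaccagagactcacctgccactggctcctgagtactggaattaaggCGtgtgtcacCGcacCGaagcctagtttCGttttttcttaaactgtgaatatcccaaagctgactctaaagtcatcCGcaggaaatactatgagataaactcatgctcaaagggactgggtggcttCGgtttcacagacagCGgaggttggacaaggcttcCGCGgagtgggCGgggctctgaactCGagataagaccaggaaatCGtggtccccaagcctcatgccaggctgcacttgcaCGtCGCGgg
Pdcd1lg2 promoter: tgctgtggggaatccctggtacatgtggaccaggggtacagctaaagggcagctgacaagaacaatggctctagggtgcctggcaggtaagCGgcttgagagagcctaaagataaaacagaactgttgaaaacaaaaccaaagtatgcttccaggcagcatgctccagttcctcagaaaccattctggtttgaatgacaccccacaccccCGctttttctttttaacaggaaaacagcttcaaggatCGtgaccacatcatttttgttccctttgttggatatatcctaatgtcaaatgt
The Cd274 window held 15 CG dinucleotides and the Pdcd1lg2 window 3. Of 32851 promoters of the same length, the median held 7, 34.6% held 15 or more and 31.4% held 3 or fewer. Among the other members matched by symbol, the Vsir window held 15, Ctla4 8, Pdcd1 and Tigit 5 each, and Cd80 and Havcr2 3 each, so that 8 of the 10 genes were matched.

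Of 137591 barcodes, 108500 cells were retained, 85957 from tumors and 22543 from mucosa. Libraries held 57221300 to 93157039 unique molecular identifiers (UMIs, each a captured transcript counted once) in tumors and 84883382 to 116133079 in mucosa, and the median per cell was 3569 to 5007 UMIs in tumors and 7546 to 9867 in mucosa. Barcodes over the mitochondrial limit made up 4.29 to 11.5% in tumors and 14.3 to 28.9% in mucosa, and any pair of libraries shared 14 to 61 cell barcodes, at most 0.561%. Mucosa and tumors were dissociated with different reagents, so dissociation and tissue cannot be told apart. Xist was at most 0.134 CPM (UMI counts of a gene scaled to the total UMIs of the library or cell class) and the Y-linked Ddx3y was 29.95 to 51.7 CPM in every library, which went against the sex label of 7 of the 13, and sex was not used. The sex labels also differed between libraries credited to the same animal.

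Cell classes were rebuilt by clustering without the member genes and were named from marker lists, so each class name is to be read as "like" that type. Epithelial cells made up 64.5% of mucosal cells and 18.9% of tumor cells (means over the 3 animals), and T cells 21.7% and 8.17%. Neutrophils went from 0.152% to 30.8%, monocytes and macrophages from 0.398% to 23.8%, and dendritic cells from 0.194% to 3.71%. Within T cells, conventional CD4 cells were 46.4% of the class in tumors and 1.96% in mucosa, regulatory T cells 12.03% and 0.305%, γδ T cells 6.54% and 49.8%, CD8 αβ T cells 2.17% and 8.68%, and Il17a-producing T cells 5.01% and 0.748%. The remaining T cells, 27.85% in tumors and 38.57% in mucosa, got no sub-type name, among them 91.3% of the T cells of Adj 2. A name covers only the sub-clusters that met its markers, so cells of a type can lie outside its name. These shares were not tested, since dissociation differed with tissue.

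In tumors most UMIs of Pdcd1, Ctla4 and Tigit lay in T cells, and those of Havcr2 and the ligands mostly in myeloid cells. T cells of the tumors carried 82.3% of all tumor UMIs of Pdcd1, 79.0% of Ctla4 and 50.7% of Tigit. Lag3 was spread more widely, with 38.7% in T cells, 15.2% in epithelial cells, 15.1% in dendritic cells, 12.8% in plasma cells and 11.7% in monocytes and macrophages. Monocytes and macrophages held 76.8% of Havcr2. Those cells also held 71.1% of Cd86, 56.7% of Vsir, 50.7% of Cd80 and 40.4% of Cd274. Neutrophils held a further 34.6% of Cd80, 33.0% of Cd274 and 31.2% of Vsir, and dendritic cells held 39.8% of Pdcd1lg2. In mucosa T cells held the largest share of 8 members, among them 96.0% of Pdcd1, 85.0% of Lag3, 71.1% of Ctla4, 64.1% of Vsir, 63.9% of Havcr2, 62.4% of Pdcd1lg2 and 55.4% of Cd80. The others were Cd274, with 69.1% in epithelial cells, and Cd86, with 58.2% in B cells.

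**Figure D1:**
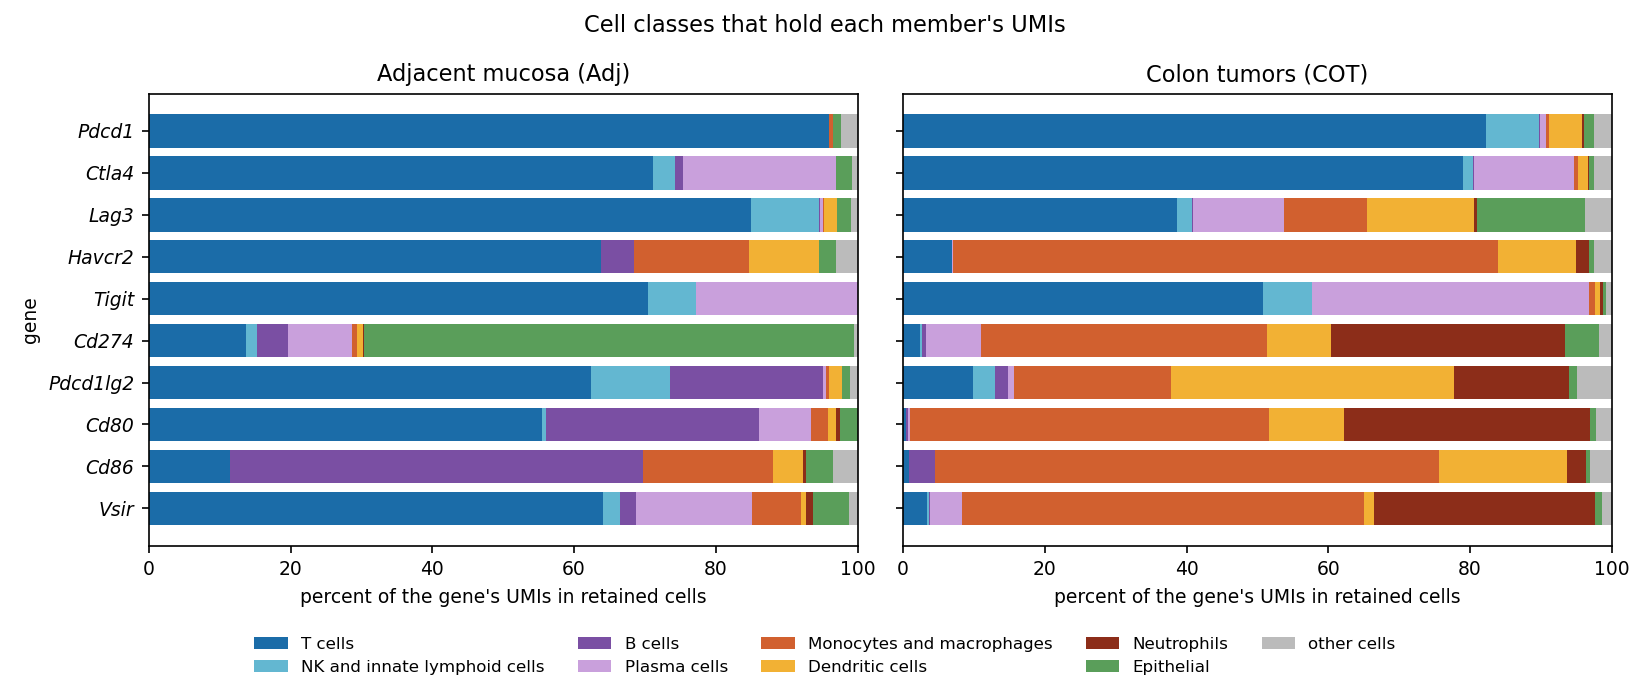
Share of each gene's UMIs (percent, pooled over libraries) by cell class, in a stacked bar for the 3 Adj libraries and another for the 10 COT libraries. T cells fill most of the Pdcd1 and Ctla4 bars in both tissues, while the Cd274 bar passes from epithelial cells (69.1% in Adj) to monocytes, macrophages and neutrophils (40.4% and 33.0% in COT).

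Levels per class are given as CPM of the class's summed UMIs, as the mean ± SD over the 3 animals, and describe each gene across classes with no test, since classes were defined on the same libraries. In tumors Ctla4 was highest in regulatory T cells, at 1309 ± 152 CPM, followed by Il17a-producing T cells at 691 ± 139 and conventional CD4 T cells at 607 ± 110. The first stood apart from the others, whose spreads overlapped. CD8 αβ T cells had 316 ± 64.4 CPM in 2 animals, γδ T cells 113 ± 25.4, NK cells 98.8 ± 34.1 and plasma cells 42.2 ± 7.23. The γδ T and NK levels lay within each other's spread.

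Pdcd1 had another order. Il17a-producing T cells were first, at 349 ± 57.7 CPM, with regulatory T cells at 114 ± 7.21, NK and innate lymphoid cells at 61.4 ± 6.63 and conventional CD4 T cells at 58.2 ± 11.6. Neither of the last pair differed from the other beyond the spread. Within the innate lymphoid class, a cluster of 108 tumor cells with group 2 innate lymphoid markers reached 234 CPM of Pdcd1 in the pooled tumors. Mature dendritic cells, which present antigen after moving out of the tissue, showed 13.3 ± 8.11 CPM.

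Lag3 was highest outside the T cells. Plasmacytoid dendritic cells, the main source of type I interferon, held 179 ± 30.9 CPM, followed by regulatory T cells at 131 ± 27.7 and γδ T cells at 115 ± 44.5, and these 3 classes overlapped. Conventional CD4 T cells had 29.2 ± 12.5 CPM and Il17a-producing T cells 33.9 ± 7.89. Tigit was low everywhere, with 22.3 ± 6.73 CPM in regulatory T cells, 12.6 ± 3.22 in γδ T cells, 10.2 ± 5.45 in NK cells and 9.54 ± 1.43 in conventional CD4 T cells, from 519 UMIs in all retained cells. Only the first and the last of these Tigit levels were clear of each other.

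Havcr2 was shared by lymphoid and myeloid classes. Type 1 dendritic cells, which cross-present antigen to CD8 T cells, held 158 ± 31.4 CPM and regulatory T cells 154 ± 13.6. Il17a-producing T cells had 126 ± 32.0, Ly6c monocytes 125 ± 23.6 and Spp1 macrophages 117 ± 7.79. No neighbors in this order differed beyond their spread.

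Among the named classes, mature dendritic cells had the highest mean level of all 4 ligands. Cd274 stood there at 324 ± 50.3 CPM, before Spp1 macrophages at 235 ± 55.1 and neutrophils at 203 ± 44.3, and each of these overlapped its neighbor. One neutrophil cluster of 1781 tumor cells and no mucosal cell, led by Ccl3, Fnip2 and Csf1, had 565 CPM of Cd274 in the pooled tumors, more than mature dendritic cells. Its 237 CPM of Pdcd1lg2, which was among its 10 leading genes, lay within the spread of the mature dendritic level given next. Pdcd1lg2 by class was highest in mature dendritic cells, at 227 ± 12.4 CPM, against 82.5 ± 12.6 in regulatory T cells, 82.2 ± 15.7 in NK cells and 81.1 ± 23.6 in type 1 dendritic cells.

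Cd80 and Cd86, the ligands of CTLA-4 and CD28, differed in their second place. Cd80 had 137 ± 11.5 CPM in mature dendritic cells, 99.4 ± 6.05 in Spp1 macrophages and 73.2 ± 9.65 in neutrophils, each clear of the next. Cd86 had 378 ± 89.0 CPM in mature dendritic cells, 240 ± 45.8 in type 2 dendritic cells, 207 ± 14.8 in Spp1 macrophages and 203 ± 21.2 in type 1 dendritic cells, and B cells held 130 ± 8.06. Vsir followed the monocyte lineage and neutrophils, with 167 ± 18.1 CPM in C1q macrophages, 156 ± 18.96 in Ly6c monocytes and 151 ± 15.9 in neutrophils, which overlapped. Spp1 macrophages were lower in Vsir, at 107 ± 25.3.

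**Figure D2:**
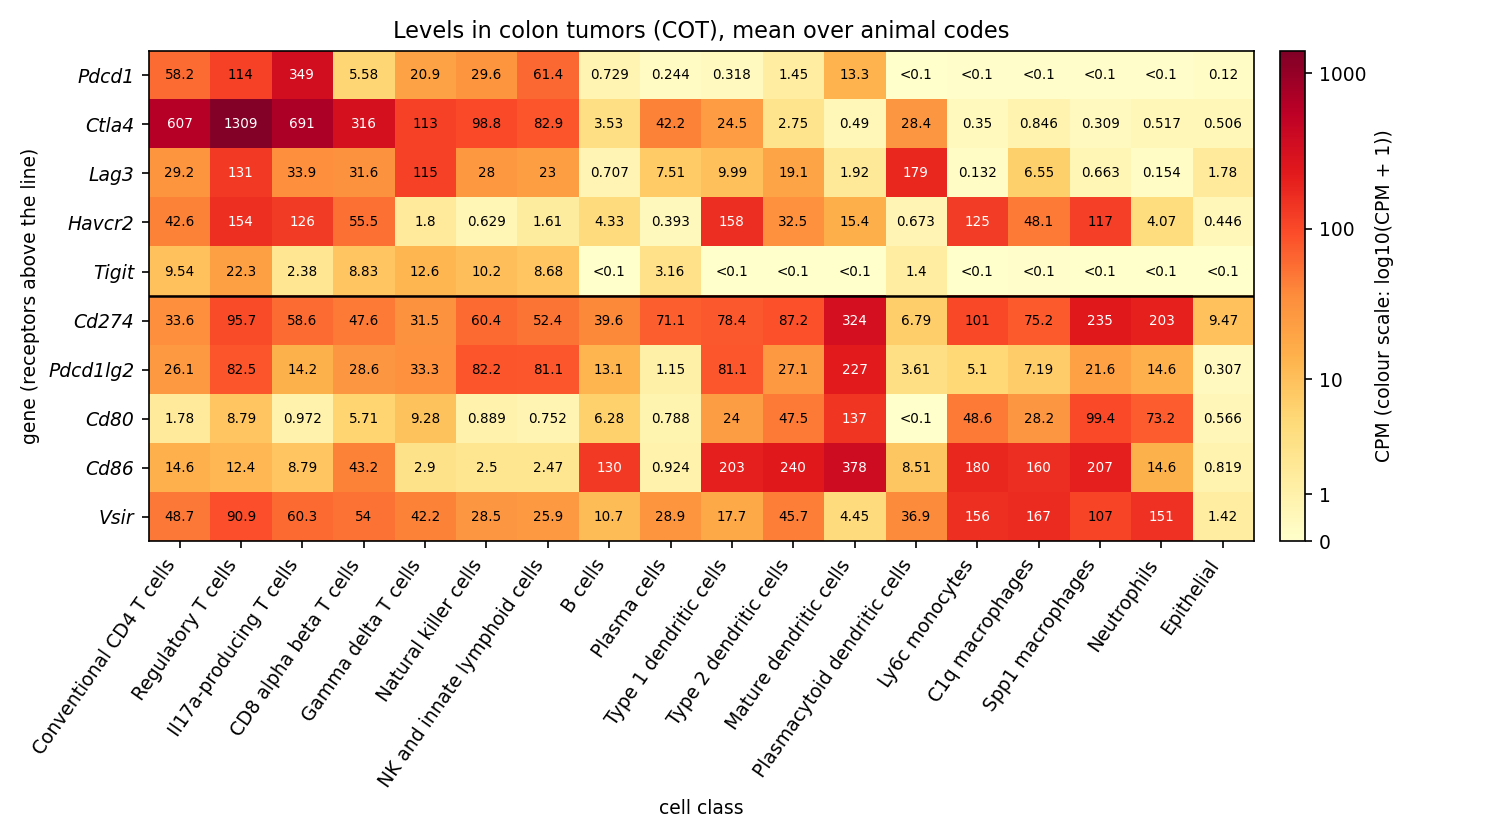
Level of each member (rows, receptors above the line) in 18 cell classes of the tumors (columns), as CPM averaged over the 3 animal codes and shown by color on the labelled scale. Ctla4 and Tigit peak in regulatory T cells (1309 CPM of Ctla4), Pdcd1 in Il17a-producing T cells, Lag3 in plasmacytoid and Havcr2 in type 1 dendritic cells, and the 4 ligands in mature dendritic cells (324 CPM of Cd274).

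The first comparison asked how the members stood in whole libraries. All 10 passed the filter on low counts, 9 rose in tumors and none fell (edgeR quasi-likelihood test, Benjamini-Hochberg adjusted p of 0.05 or less), while 71.1% of the 17327 genes tested were called in either direction, 36.3% were higher and 34.8% lower. The p-values measure only the spread between these libraries, and tumors of an animal share that animal. The median log2 fold change of the members was 3.60 and that of all genes tested 0.02. The 9 genes stood higher in every tumor than in any mucosal library, as did 27.0% of all genes tested, and 27.2% stood lower in every tumor. In such sums fewer cells of a type and less RNA per cell cannot be told apart, and the 15 dissociation stress genes (immediate early and heat shock genes) all rose too.

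Cd86, Havcr2 and Cd80 had the largest changes. Cd86 ran from 40.1 to 79.5 CPM in tumors (median 63.04) and was 1.49, 0.462 and 1.28 CPM in Adj 1, 2 and 3, a log2 fold change of 5.90 ± 0.37 (SE). Havcr2 ran from 21.3 to 34.6 CPM (median 29.98) against 0.676, 0.316 and 0.614, a change of 5.79 ± 0.27. The lowest tumor was far above the highest mucosal library for both genes. Cd80 followed with 22.1 to 35.9 CPM (median 26.1) against 1.15, 0.328 and 0.6251, which was 5.30 ± 0.33.

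Vsir was 44.2 to 75.7 CPM (median 57.8) in tumors and 6.38, 3.09 and 4.35 in mucosa, a change of 3.74 ± 0.25. Cd274 had the widest range of CPM between tumors. It reached 134.2 CPM in COT 9 and 118 in COT 1 but 33.0 in COT 3, against 7.92, 4.67 and 7.32 in Adj 1 to 3, and rose by 3.55 ± 0.43 on the log2 scale. Ctla4, with 16.3 to 37.2 CPM (median 25.6) against 4.36, 0.826 and 1.47, rose by 3.66 ± 0.49.

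Pdcd1lg2, Pdcd1 and Tigit rose by less, and their calls were not kept among cells other than epithelial. Pdcd1lg2 changed by 2.67 ± 0.52, Pdcd1 by 2.33 ± 0.49 (1.65 to 5.31 CPM, median 3.81, against 1.22, 0.231 and 0.759) and Tigit by 2.03 ± 0.41. With epithelial cells left out, a choice made after seeing the data, the changes of Pdcd1lg2, Pdcd1 and Tigit were 0.65, 0.26 and -0.06 and none was called (edgeR adjusted p of 0.124, 0.481 and 0.868). Lag3 overlapped between tissues in whole libraries, with 2.68 to 7.07 CPM (median 4.599) in tumors and 7.36, 2.83 and 4.32 in mucosa (log2 fold change -0.04 ± 0.30, edgeR adjusted p = 0.909). Without epithelial cells Lag3 was lower in tumors by 2.40 on the log2 scale (edgeR adjusted p = 1.42e-08), and the other 6 members were called higher. That fit called 9819 of 15087 genes, 5303 higher and 4516 lower.

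Within T cells, sums leave aside the number of T cells but not the mix of their sub-types. The part of that mix in the changes below was not tested. All 10 members passed the filter, 6 rose, 2 fell and 2 were not called, beside 40.9% of the 10352 genes tested called in either direction, 20.4% higher and 20.5% lower. The members' median log2 fold change was 1.53 and that of all genes tested -0.02. The T cells of the tissues were made up differently. A lymphocyte cluster led by Gzma, Cd160 and Cd7 held 3899 mucosal and 652 tumor cells, whereas clusters led by Il17a and Tnfsf11, by Cd8b1 and Gm2682 and by Foxp3 and Penk held 3400, 1833 and 819 tumor cells and 342, 256 and 31 mucosal cells. The sub-type names came from a separate sub-clustering and covered 166 CD8 αβ and 349 Il17a-producing tumor T cells. They do not stand for all cells of the clusters led by Cd8b1 and Il17a.

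Ctla4 was the receptor that moved furthest. Its level in tumor T cells ran from 382 CPM in COT 7 to 623 in COT 9, with a median of 503, and was 39.0, 25.6 and 29.3 CPM in Adj 1, 2 and 3. Every tumor stood above every mucosal library, and the log2 fold change was 4.15 ± 0.21 (17.8-fold, edgeR adjusted p = 1.56e-10). Libraries of the tissues did not overlap with tumors higher in 9.86% of all genes tested and with tumors lower in 19.8%.

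Pdcd1 rose as well. It ran from 31.4 CPM in COT 7 to 101 in COT 9 (median 77.2) and was 15.5, 9.72 and 18.2 in Adj 1 to 3. No library of one tissue reached the other, and the change was 2.42 ± 0.28 (edgeR adjusted p = 1.69e-06). Havcr2 showed 29.4 to 73.5 CPM (median 48.7) against 4.97, 9.72 and 10.3, again without overlap, and rose by 2.80 ± 0.26 (edgeR adjusted p = 1.34e-07). Tigit was lower throughout, with 5.16 to 10.7 CPM (median 9.14) against 3.13, 3.07 and 2.23, and rose by 1.80 ± 0.27 (edgeR adjusted p = 2.68e-05) on 241 tumor and 31 mucosal UMIs.

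Lag3 was the receptor that fell. Tumor T cells had 13.2 CPM in COT 2 to 62.8 in COT 6 (median 46.4), and mucosal T cells 79.4, 105 and 95.8. All 10 tumors were below all 3 mucosal libraries, with a log2 fold change of -0.94 ± 0.23 (edgeR adjusted p = 0.00321). The 5 receptors kept these calls in T cells with a sub-type name alone, which leaves out most T cells of Adj 2, at 4.27 for Ctla4, 2.44 for Pdcd1, 3.05 for Havcr2, 1.96 for Tigit and -0.71 for Lag3. That fit called 3727 of 9577 genes, 1940 higher and 1787 lower.

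The ligands were low in T cells, where Cd274 and Cd86 rose. Cd274 ran from 24.5 to 56.9 CPM (median 38.7) against 20.4, 16.4 and 21.5 and rose by 1.25 ± 0.20, and Cd86 ran from 6.15 to 18.5 CPM (median 11.8) against 2.03, 3.07 and 3.63 and rose by 2.26 ± 0.33. The 11 monocyte and macrophage markers summed to 162 to 498 CPM in tumor T cells and 47.5 to 87.0 in mucosal T cells, with Csf1r at 0 in mucosa, and their part in the ligand values was not tested. Per 100 UMIs of those markers, tumor T cells held 3.63 UMIs of Cd86, 14.0 of Cd274 and 16.3 of Havcr2, and tumor monocytes and macrophages held 0.495, 0.352 and 0.253.

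Cd80 was the ligand that fell in T cells, from 9.21, 6.65 and 8.10 CPM in mucosa to 1.499 to 4.81 (median 2.46) in tumors, a log2 fold change of -1.49 ± 0.27 (edgeR adjusted p = 2.30e-04). Pdcd1lg2 overlapped, with 19.8 to 34.8 CPM against 29.1, 20.0 and 23.2, and its change of 0.35 ± 0.17 was not called (edgeR adjusted p = 0.109). With the animal as a block it was called at 0.38 (edgeR adjusted p = 0.0374) and without Adj 1 at 0.62 (0.0193), and with the tumors of an animal summed it was not (0.37, 0.154). Vsir was lower in every tumor on the CPM scale, 40.7 to 59.1 against 63.3, 77.3 and 59.8, yet its log2 fold change after normalization, -0.24 ± 0.12, was not called (edgeR adjusted p = 0.124).

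**Figure D3:**
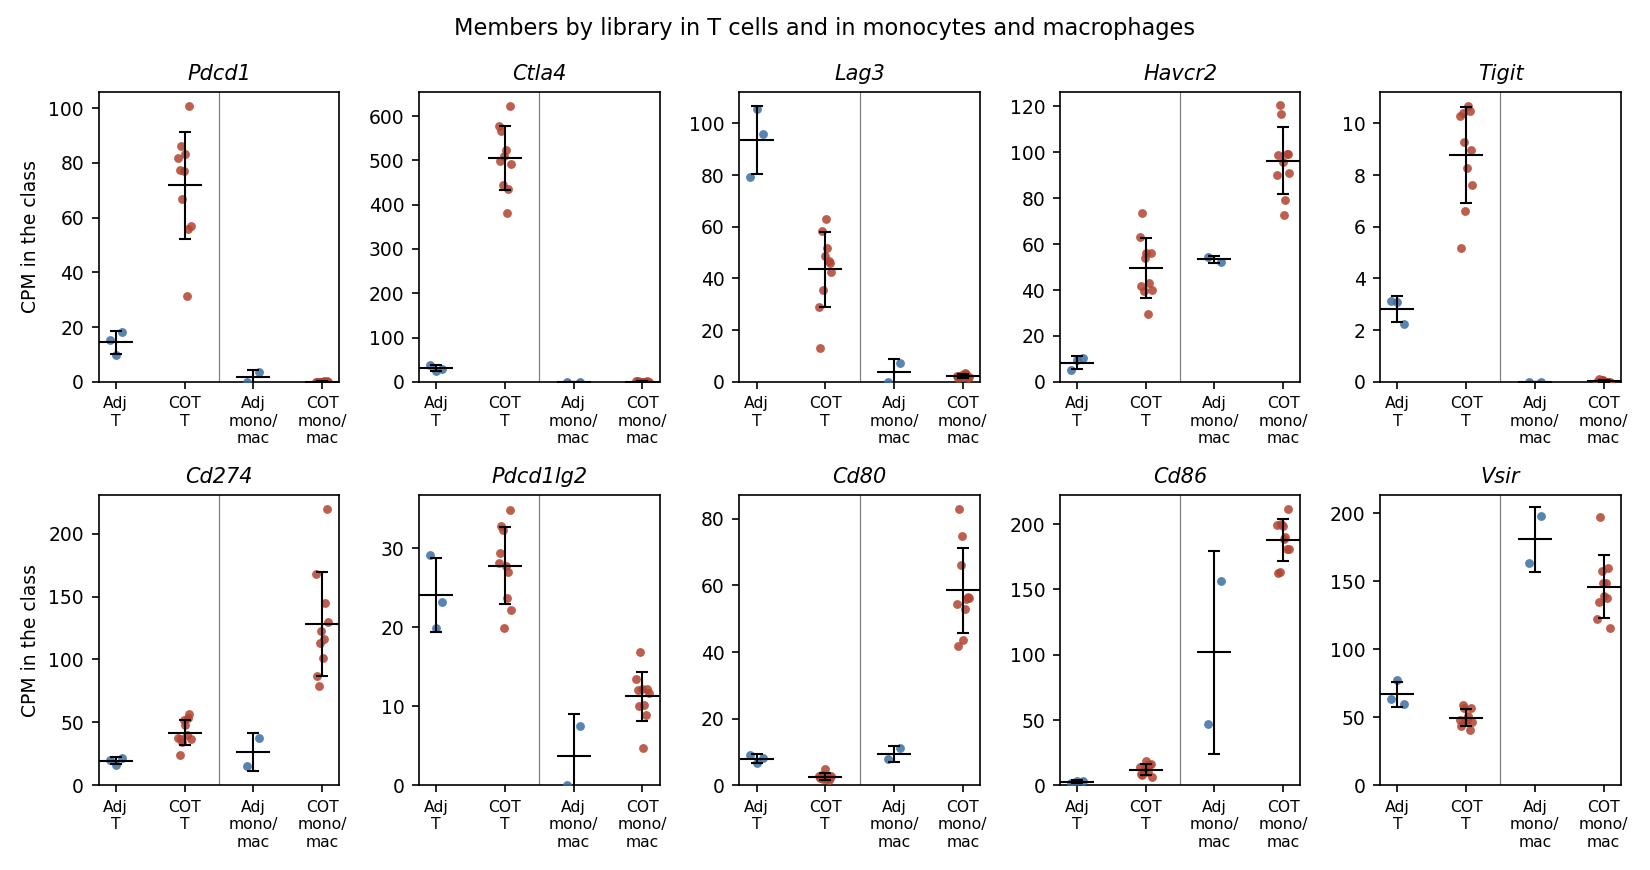
Level of each member (CPM of the class's summed UMIs, 1 panel per gene) in T cells and in monocytes and macrophages, with a point for each library, the mean and the SD, for Adj and COT, where a library held 20 or more such cells. In T cells the 10 COT points of Ctla4 (382 to 623 CPM) and Pdcd1 lie above the 3 Adj points and those of Lag3 (13.2 to 62.8 CPM) lie below them.

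Shares of T cells with a UMI were compared at equal depth, since the median of a library was 2999 to 4341 UMIs per T cell in tumors and 1304 to 3616 in mucosa. Each cell of at least 1000 UMIs was thinned to 1000, which left out 176 tumor and 436 mucosal T cells, and tumors were set against the mucosa of their own animal by an exact permutation test with 75 assignments, whose smallest two-sided p is 0.0133. Ctla4 was detected in 33.5 ± 1.91% of tumor T cells and 2.65 ± 1.04% of mucosal T cells (mean ± SD over 3 animals), Pdcd1 in 6.27 ± 0.41% and 1.27 ± 0.37%, Havcr2 in 3.75 ± 0.41% and 0.785 ± 0.40%, and Tigit in 1.06 ± 0.08% and 0.353 ± 0.17%. Each was higher in 10 of 10 tumors, with p = 0.0133 by the exact permutation test and 0.0293 adjusted over the 11 pairs tested. Lag3 was detected in 3.23 ± 0.65% against 8.16 ± 0.87% and was higher in 0 of 10 tumors, with the same p. Thinned to 2000 UMIs, Havcr2 differed by 4.58 percentage points and was not called (adjusted p = 0.088, exact permutation test). Without thinning the differences were 52.4 percentage points for Ctla4, 13.3 for Pdcd1, 9.97 for Havcr2, 2.66 for Tigit and -7.03 for Lag3, and that of Lag3 was then not called (adjusted p = 0.0815, exact permutation test). In epithelial cells of the tumors, thinned alike and thought to lack these receptors, the shares were 0.131% or less. Those cells had library medians of 8703 UMIs or more before thinning, so their shares are not an equal background for T cells.

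Few T cells showed several receptors at this depth. Of 6540 thinned tumor T cells, 33.7% had a UMI of 1 of the 5 receptors, 5.596% of 2 and 0.719% of 3 or more, and of 4163 mucosal T cells 11.9%, 0.697% and 0%. Pdcd1 and Ctla4 were found together in 176 tumor T cells, Ctla4 and Havcr2 in 127 and Ctla4 and Lag3 in 96. The product of the single shares would give 134.6, 81.5 and 66.8. Within regulatory T cells Pdcd1 and Ctla4 met in 51 cells, against 50.9 from that product, and within conventional CD4 T cells of the tumors in 65, against 59.2. Regulatory T cells of the tumors had 2 receptors in 15.5% of 721 cells and Il17a-producing T cells in 16.2% of 346. Conventional CD4 T cells had 2 in 4.91% of 3015 tumor cells and in 7.23% of 83 mucosal cells.

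The sub-types divided the receptors of tumor T cells unevenly. Conventional CD4 T cells held 50.8% of the Ctla4 UMIs of all tumor T cells and regulatory T cells 24.1%. Il17a-producing T cells held 29.96% of the Pdcd1 UMIs, with 5.197% of the cells in the same pool. At 1000 UMIs, 63.1% of regulatory T cells (95% exact interval 59.5 to 66.6) and 43.9% of Il17a-producing T cells (38.6 to 49.3) had a UMI of Ctla4, and 27.5% of Il17a-producing T cells (22.8 to 32.5) had one of Pdcd1. These intervals cover counting error only.

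Conventional CD4 T cells were compared in 10 tumors and 2 mucosal libraries, Adj 1 with 64 cells and Adj 3 with 22, and 9 members passed the filter. Ctla4 was the member called, beside 3.42% of 8389 genes called in either direction, 2.42% higher and 1.00% lower, and 12.2% had all tumors higher and 14.4% all tumors lower. It ran from 454 to 740 CPM (median 578) against 223 and 184, without overlap, and rose by 1.74 ± 0.26, or 1.60 relative to the median of all genes, which stood at 0.14 (edgeR adjusted p = 2.38e-04). Pdcd1 was 25.6 to 81.6 CPM (median 50.9) in tumors and 118 and 237 in mucosa, lower in all 10 tumors, but its change of -1.12 ± 0.40 was not called (edgeR adjusted p = 0.136). It passed under DESeq2, at -1.21 with an adjusted p of 0.0477. Havcr2, Tigit, Lag3, Cd274, Pdcd1lg2, Cd86 and Vsir passed the filter and were not called, with changes from -1.31 for Lag3 to 1.67 for Havcr2. Most of these cells were in sub-cluster 0, with 53.5% in tumors and 82.6% in mucosa.

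γδ T cells, which line the epithelium, were compared in 8 tumors and 3 mucosal libraries, and 3 members passed the filter. Ctla4 ran from 84.4 to 165 CPM (median 114) against 17.7, 7.11 and 16.4 and rose by 2.92 ± 0.24 (edgeR adjusted p = 1.17e-08), beside 19.4% of 3576 genes called in either direction, 11.7% higher and 7.66% lower, and 6.07% had all tumors higher. Of the 12 stress genes that passed here, 9 rose, and their part was not tested. Lag3 overlapped, with 61.7 to 164 CPM (median 94.4) against 103, 107 and 94.6, and its change was 0.08 ± 0.22 (edgeR adjusted p = 0.854). Pdcd1 had too few UMIs for the filter, 31 in these 8 tumors and 17 in mucosa. Fits that let it in did so through the tumors, where it was high, and nothing is read from them. Vsir, at 22.5 to 75.8 CPM (median 38.2) against 64.7, 92.5 and 62.9, had a change of -0.51 ± 0.23 (edgeR adjusted p = 0.127). Of the tumor γδ T cells 94.5% were in sub-cluster 10, and of the mucosal ones 50.9% were in sub-cluster 3 and 48.8% in sub-cluster 4.

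CD8 αβ T cells reached the minimum of 20 cells in 3 tumors and 2 mucosal libraries, and 2 members passed. Ctla4 was 391, 333 and 271 CPM in COT 1, 2 and 8 and 69.5 and 62.2 in Adj 1 and 3, so that the tissues did not overlap. It rose by 2.32 ± 0.31 (edgeR adjusted p = 8.69e-04), beside 3.16% of 2562 genes called in either direction, 2.11% higher and 1.05% lower, and 12.3% had all tumors higher. Vsir, at 22.3 to 70.6 CPM against 86.9 and 60.1, was not called (-0.50 ± 0.41, edgeR adjusted p = 0.706). Pdcd1 had 2 UMIs in these 3 tumors and 54 in mucosa and was below the filter. The CD8 αβ T cells of all tumors, 166 cells under that name, held 13 UMIs of Pdcd1. Tumor T cells with no sub-type name held 353, and CD8 cells can lie among them, so the 13 do not stand for all CD8 T cells.

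The change of Ctla4 between tissues was compared between sub-types by a test of that difference itself, within libraries and by a choice made after seeing the data. It was larger in γδ T cells than in conventional CD4 T cells by 1.25 ± 0.32 on the log2 scale (edgeR adjusted p = 0.0262), with tumor and mucosal γδ T cells in different sub-clusters. For Ctla4, CD8 αβ against conventional CD4 T cells (0.70, edgeR adjusted p = 0.666) and γδ against CD8 αβ T cells (0.52, edgeR adjusted p = 0.589) did not pass. Of 19 differences tested, 3 passed. Among all genes, 41 of 5065 were called for CD8 αβ against conventional CD4 T cells, 148 of 5914 for γδ against conventional CD4 and 83 of 3600 for γδ against CD8 αβ. The other 2 were of Pdcd1, which was below the filter in γδ and CD8 αβ T cells and was admitted through the sub-type or tissue where it was high, and nothing is read from them.

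**Figure D4:**
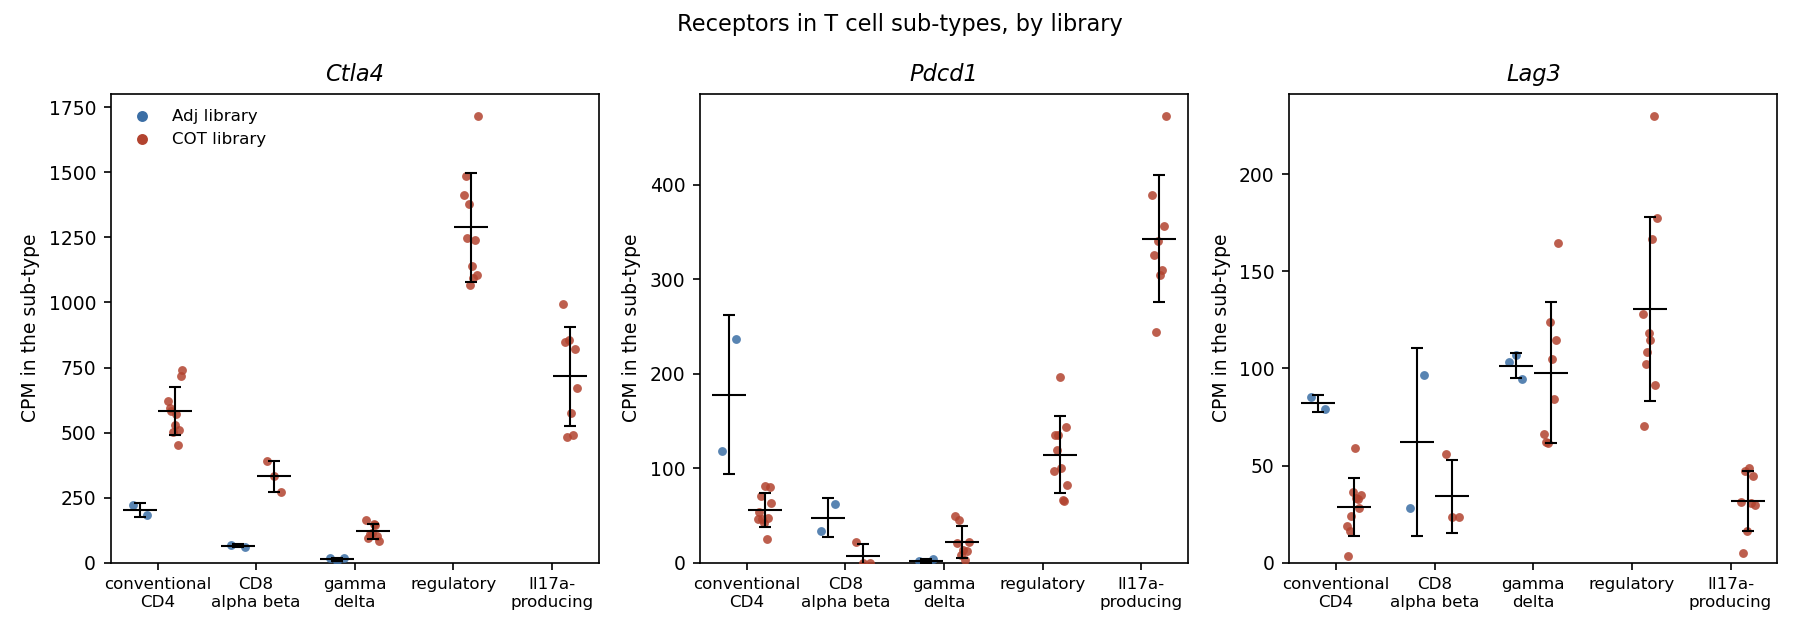
Level (CPM of summed UMIs) of Ctla4, Pdcd1 and Lag3 in 5 T cell sub-types, with a point for each library of at least 20 cells, the mean and the SD, for Adj and COT. Ctla4 is higher in COT in each sub-type with both tissues shown (84.4 to 165 CPM in γδ T cells of the tumors), while Pdcd1 in conventional CD4 T cells is lower in COT (25.6 to 81.6 CPM) than in Adj (118 and 237 CPM).

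Lag3 fell in NK and innate lymphoid cells too, while Ctla4 rose. Of the 10 members 5 passed the filter and 4 were called, among them Pdcd1, which had no mucosal UMI and so passed through the tumors alone, beside 25.3% of 4134 genes in either direction, 14.9% higher and 10.4% lower. Lag3 was 8.30 to 45.1 CPM (median 17.8) in tumors and 150, 161 and 88.1 in mucosa, with no overlap, and fell by 2.58 ± 0.32 on the log2 scale (edgeR adjusted p = 3.17e-06). Pdcd1 had 169 UMIs in the tumors, 11.5 to 125 CPM with a median of 64.7, and no UMI in mucosa, at least 14.975-fold higher than the floor of 3 counts over the mucosal group (3.69 CPM). Of these UMIs 98 were in the group 2 innate lymphoid cluster, whose 108 cells all came from tumors, and 71 in NK cells (0 to 64.7 CPM, median 26.9). At 1000 UMIs, 18.3% of 104 group 2 cells and 1.25% of 720 NK cells of the tumors had a UMI of Pdcd1, against 0 of 208 mucosal NK cells (95% exact upper bound 1.76%), and NK cells alone were not tested. Tissues did not overlap with tumors higher in 8.83% of the genes tested and with tumors lower in 10.5%.

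Ctla4 in these cells ran from 7.77 CPM in COT 3 to 120 in COT 10 (median 92.4) and was 26.3, 0 and 10.4 in mucosa, so that 1 tumor fell among the mucosal libraries, and it rose by 2.18 ± 0.50 (edgeR adjusted p = 0.00268). Cd274 was 36.4 to 68.9 CPM (median 51.9) against 35.7, 23.0 and 25.9 and rose by 0.87 ± 0.30 (edgeR adjusted p = 0.0359), a call that 9 alternatives lost, among them DESeq2 with an adjusted p of 0.0898. Pdcd1lg2 overlapped, with 51.9 to 97.7 CPM against 69.5, 57.6 and 41.4 (0.56 ± 0.25, edgeR adjusted p = 0.101). In tumors 85.5% of the class was sub-cluster 8 and 12.9% the group 2 innate lymphoid cluster, and in mucosa 92.3% was sub-cluster 13. The 8 T cell markers summed to 395 to 746 CPM in tumors and 852 to 901 in mucosa.

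In monocytes and macrophages Cd274, Havcr2 and Cd86 were higher in tumors, on few mucosal cells, and Cd80 was called on few mucosal UMIs. Mucosa offered 20 cells in Adj 1 and 63 in Adj 3, against 20598 in the tumors, and 8 members passed the filter. The class was made up differently in the tissues. Spp1 macrophages, second in Cd274 and Cd80 among the classes above, were 4559 cells in tumors and 0 in mucosa. Of the Ly6c monocytes, 76.5% of 34 mucosal cells were in sub-cluster 5, and 48.5% and 27.1% of tumor cells in sub-clusters 0 and 4. C1q macrophages were mostly in sub-cluster 2 in both tissues (62.1% in tumors, 80.6% in mucosa). Of the 8 members, 4 rose, beside 5.32% of 12350 genes called in either direction, 4.45% higher and 0.866% lower, and 25.9% had all tumors higher. The median log2 fold change of all genes was 0.34 here, so changes are also given relative to it.

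Cd80 ran from 41.7 to 82.9 CPM (median 56.0) in tumors and was 7.79 and 11.2 in Adj 1 and 3, which rested on 4 UMIs in all. The tissues did not overlap and Cd80 was called (edgeR adjusted p = 0.00332), but it reached the filter's count through its 8760 tumor UMIs. Its change of 2.93 ± 0.52, or 2.59 relative to the median, is therefore not read as a result. Cd274 ran from 78.8 CPM in COT 3 to 220 in COT 9 (median 120) against 15.6 and 37.3, which rested on 2 and 10 UMIs, and rose by 2.51 ± 0.56, or 2.17 relative to the median (edgeR adjusted p = 0.0148).

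Havcr2 was 72.9 to 121 CPM (median 97.2) against 54.5 and 52.3 and rose by 1.27 ± 0.28, or 0.93 relative to the median (edgeR adjusted p = 0.0147). Cd86 was 163 to 211 CPM (median 190) against 46.8 and 157, so that Adj 3 came close to the tumors and Adj 1 did not, and rose by 1.13 ± 0.28, or 0.78 relative to the median (edgeR adjusted p = 0.0252). Vsir overlapped, with 116 to 198 CPM against 164 and 198, and its change was 0.08 ± 0.20 (edgeR adjusted p = 0.900). Pdcd1lg2 and Lag3 had 2 mucosal UMIs each and Ctla4 none, and they were not called. Without Adj 1 all 4 calls were lost, with changes of 2.64 for Cd80, 2.04 for Cd274, 1.15 for Havcr2 and 0.52 for Cd86, and without Adj 3 all but that of Cd86 were lost, at 3.43, 3.57 and 1.36. In those fits mucosa was 1 library, assumed to vary as the tumors do. The Cd86 call was also lost with RLE size factors (0.98, edgeR adjusted p = 0.0609), without COT 5 (1.03, 0.0582) and with the tumors of an animal summed (1.11, 0.146), and the last also lost that of Havcr2 (1.23).

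Monocytes, macrophages and dendritic cells as 1 class gave the thinned shares in 2 animals, where 15 assignments allow no p below 0.0667. Cd274 was detected in 13.6 ± 3.11% of tumor cells and 2.62 ± 0.12% of mucosal cells, Cd80 in 6.49 ± 0.07% and 0.633 ± 0.90%, Cd86 in 18.3 ± 1.25% and 11.02 ± 4.11% and Havcr2 in 9.93 ± 1.02% and 6.5002 ± 1.55%. All 4 were higher in 6 of 6 tumors, at that smallest p of the exact permutation test, 0.0815 adjusted. Vsir, at 12.7 ± 0.71% and 12.2 ± 9.60%, and Pdcd1lg2, at 2.50 ± 0.28% and 1.35 ± 1.91%, were each higher in 4 of 6.

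In B cells Cd86 rose and Pdcd1lg2 fell. Of the 10 members 4 passed the filter, and 1 rose and 1 fell, beside 40.1% of 5922 genes called in either direction, 18.7% higher and 21.4% lower. Cd86 ran from 91.0 to 189 CPM (median 120) against 44.1, 45.8 and 65.8, without overlap (7.62% of genes had all tumors higher), and rose by 1.33 ± 0.21 (edgeR adjusted p = 6.39e-05). Pdcd1lg2 ran from 5.10 to 25.2 CPM (median 10.99) against 31.4, 22.9 and 40.0, so that the highest tumor passed Adj 2, and fell by 1.33 ± 0.29 on the log2 scale (edgeR adjusted p = 0.00102). Cd274 and Vsir overlapped and were not called, at 0.49 ± 0.46 and -0.57 ± 0.69. Cd80, with 42 tumor and 50 mucosal UMIs (6.75 and 17.3 CPM on average, overlapping), was below the filter. The 3 alternatives that tested it called it lower. Its values were -1.81 with no filter, -1.84 with the animal as a block and -2.10 with the tumors of an animal summed (edgeR adjusted p of 0.00588, 0.0184 and 0.00182). Since the gene was below the filter of the main test, nothing is read from these calls.

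Plasma cells, the antibody-secreting cells, held UMIs of Ctla4 and Tigit. Ctla4 ran from 26.3 to 51.4 CPM in tumors (median 44.9) and was 94.3, 12.9 and 12.3 in mucosa, so that Adj 1 was above every tumor and the others below, and its change of 0.78 ± 0.43 was not called (edgeR adjusted p = 0.213). Without Adj 1 it was called, at 2.26 (edgeR adjusted p = 2.68e-04). Per 100 UMIs of the 8 T cell markers, tumor plasma cells held 107 UMIs of Ctla4 and 7.87 of Tigit, and tumor T cells held 9.62 and 0.163. At 1000 UMIs, 4.16% of 3437 tumor plasma cells had a UMI of Ctla4 (95% exact interval 3.52 to 4.88), against 0.0374% of epithelial cells. They carried 14.1% of all tumor UMIs of Ctla4 and 39.2% of those of Tigit.

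Of the 10 members 6 passed the filter in plasma cells, and 1 rose and 1 fell, beside 21.1% of 9295 genes called in either direction, 10.1% higher and 10.9% lower, and 1.96% had all tumors higher and 27.5% all tumors lower. Cd274 was 41.9 to 102 CPM (median 59.7) against 68.0, 14.9 and 47.2, which overlap, and rose by 1.19 ± 0.31 (edgeR adjusted p = 0.0145), a call lost without Adj 2 (0.79, edgeR adjusted p = 0.0607) and with the tumors of an animal summed (1.24, 0.0632). Cd80 fell by 1.60 ± 0.45 on the log2 scale (edgeR adjusted p = 0.0192) on 45 tumor and 12 mucosal UMIs, and this call was lost without Adj 1, without Adj 3 and with doublets kept. Of the 15 dissociation stress genes 9 rose in plasma cells, and their part was not tested. Lag3 was 2.30 to 24.9 CPM (median 4.27) against 1.19, 1.99 and 1.29. The mucosal values came from 5 UMIs, so that Lag3 passed the filter through its 375 tumor UMIs. It was not called (edgeR adjusted p = 0.129). Calls came under DESeq2, with the animal as a block (edgeR adjusted p = 0.0317) and without COT 9 (edgeR adjusted p = 0.0390). With the tumors of an animal summed it was not called (edgeR adjusted p = 0.110). No fold is given for Lag3 here, and nothing is read from these calls. Tigit and Vsir were not called, at 0.71 ± 0.50 and -0.28 ± 0.15.

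Member levels in epithelial cells were low, although these cells held most mucosal Cd274 UMIs. Of the 10 members 8 passed the filter and 7 rose, beside 64.9% of 15405 genes called in either direction, 34.2% higher, 30.7% lower and 34.2% with all tumors higher. Those 7 stood at no more than 3.39 CPM in any tumor, that value being Lag3 in the highest library. They passed the filter through the tumors, with 3 mucosal UMIs of Havcr2, 4 of Cd80, 5 of Pdcd1lg2, 10 of Cd86 and 12 of Ctla4, so the count of calls is not read as a result and no fold is given for these. Lag3 had 24 mucosal UMIs and Vsir 56, and no fold is given for them either. Transcripts of other cells moved with them. The monocyte and macrophage markers went from a median of 13.5 to 210 CPM, the T cell markers from 6.06 to 18.01 the neutrophil markers from 8.45 to 919, and 14 of the 15 stress genes rose. Their part in these changes was not tested. Per 100 UMIs of monocyte and macrophage markers, epithelial cells of the tumors held 0.365 UMIs of Cd86, 0.218 of Havcr2, 0.239 of Cd80 and 0.837 of Lag3, and monocytes and macrophages held 0.495, 0.253, 0.154 and 0.00569. Per 100 UMIs of T cell markers, Lag3 had 10.0 UMIs in epithelial cells of the tumors and 0.834 in tumor T cells.

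Cd274 was the member that passed the filter in epithelium and was not called. Per 100 UMIs of monocyte and macrophage markers it had 4.49 UMIs in epithelial cells of the tumors and 0.352 in monocytes and macrophages. It ran from 1.61 CPM in COT 3 to 14.1 (median 9.18) against 5.35, 4.14 and 5.62 in mucosa, which overlap, and its change of 0.55 ± 0.43 was not called (edgeR adjusted p = 0.267). It passed in 4 alternatives, without COT 3 at 0.68, with the tumors of an animal summed at 0.61, with a 10% mitochondrial limit at 1.42 and with doublets kept at 1.17 (edgeR adjusted p of 0.0172 to 0.0480). An epithelial cluster whose leading genes included Ly6m, Clca4b, Aqp8 and Slc26a3 (the last encodes a colonocyte chloride exchanger) had 62.9 CPM of Cd274 in the 592 tumor cells and 28.9 in the 1173 mucosal cells. The clusters that made up most of the epithelium differed by tissue, with 6667 and 5345 tumor cells against 7 and 4 mucosal cells in those led by Cavin3 and Krt36 and by Mt4 and Pnliprp1.

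**Figure D5:**
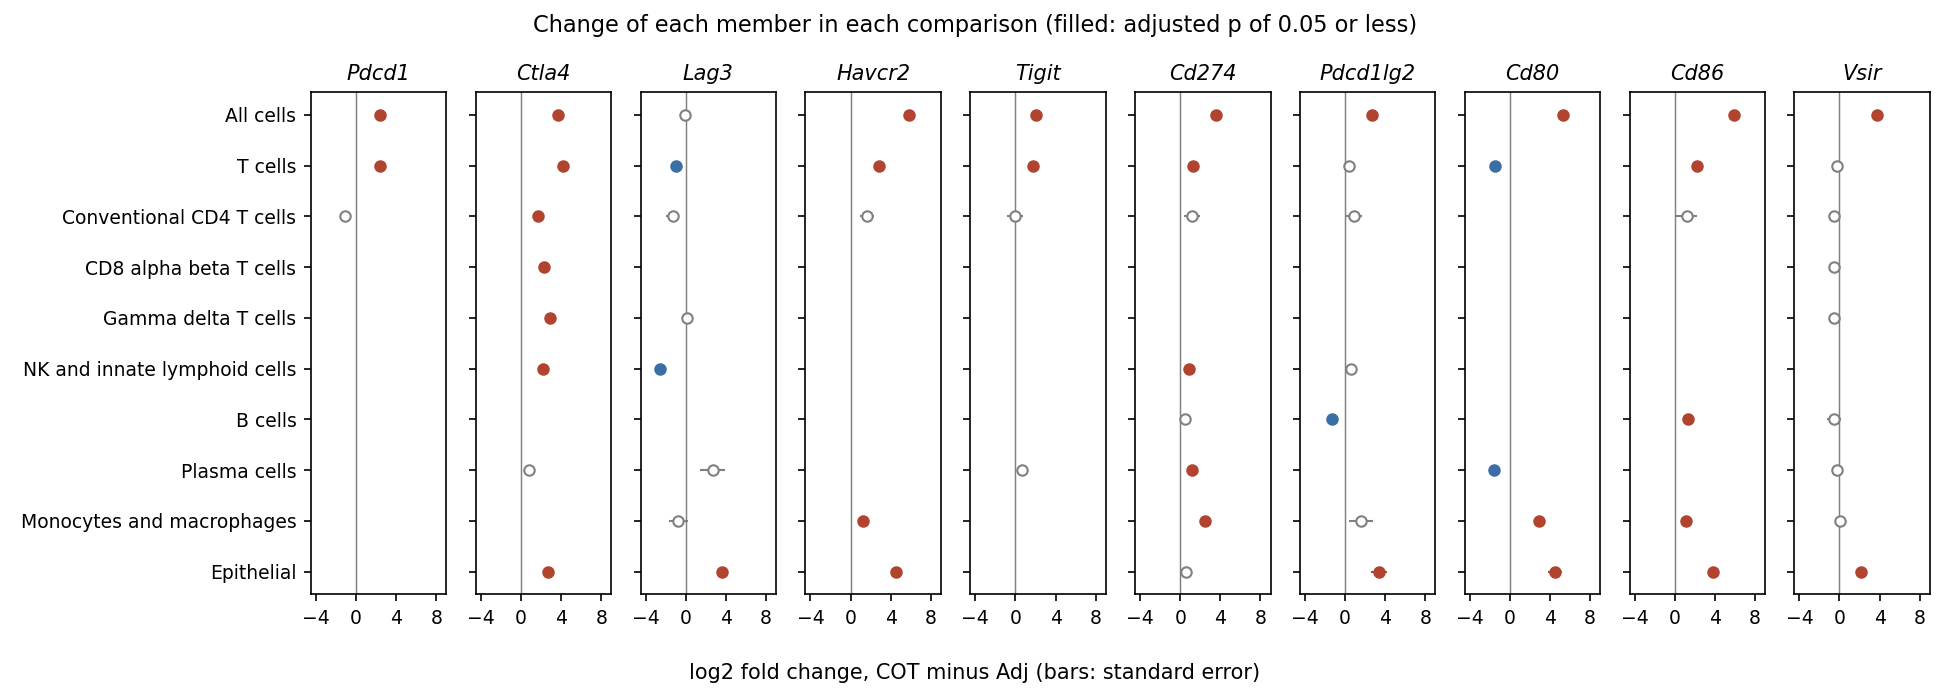
Log2 fold change of each member, COT against Adj, with its SE, in 10 comparisons (whole libraries and cell classes). Filled points passed an adjusted p of 0.05 (red higher in COT, blue lower) and hollow gray points did not. Ctla4 is filled red in whole libraries and in T cells (4.15), and Lag3 is filled blue in T cells (-0.94) and in NK and innate lymphoid cells (-2.58). Genes below the filter are blank, 2 values with no UMI in 1 tissue are left out, and the epithelial values of Havcr2, Cd80 and Pdcd1lg2 rest on 3 to 5 mucosal UMIs. So do those of Lag3 in plasma cells and of Cd80 in monocytes and macrophages.

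Over the 10 comparisons 65 member tests were made, of which 34 were called higher and 5 lower in tumors. The higher calls include those in epithelial cells, Pdcd1 in NK and innate lymphoid cells and Cd80 in monocytes and macrophages. These passed the filter through the tumors, so the counts are not read as a result. The share of all genes called ran from 3.16% in CD8 αβ T cells to 71.1% in whole libraries, and 16 of the 34 higher calls came from whole libraries and epithelial cells, where 71.1% and 64.9% of genes were called. The comparisons share mucosal libraries, Adj 1 to 3 in most and Adj 1 and 3 alone in monocytes and macrophages, conventional CD4 T cells and CD8 αβ T cells.

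Other genes of the pathway were counted from whole lists, and examples are named from the called genes with the largest or smallest change of a list. In T cells, where 40.9% of all genes were called, 9 of the 10 other co-inhibitory receptors passed the filter, 2 rose and 4 fell, with a median log2 fold change of -0.66 against -0.02 for all genes. Lilrb4a, an inhibitory immunoglobulin-like receptor, rose by 2.097 ± 0.24, and Cd244a, the CD48 receptor of cytotoxic cells, fell by 4.03 ± 0.18 on the log2 scale. Of the 3 co-stimulatory receptors, 2 rose and 1 fell: Icos, which binds Icosl, rose by 3.70 ± 0.20, from 38.6 to 448 CPM, and Cd226, which competes with TIGIT for its ligands, fell by 0.87 ± 0.14.

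Of the 13 other ligands 7 passed in T cells, 1 rose and 2 fell (40.9% of all genes were called), with Cd47, the "do not eat me" signal read by SIRPα, at 1.34 ± 0.15 and Ceacam1, a partner of TIM-3, at -4.02 ± 0.52. The 7 T cell state genes all passed, 3 rose and 2 fell, with Prdm1, a repressor of effector and exhausted T cells, at 1.30 ± 0.21 and Eomes, a factor of memory and exhausted cells, at -1.18 ± 0.45. Of the 15 dissociation stress genes 14 rose in T cells, led by Atf3 at 5.10 ± 0.37, and their part in the members' values was not tested.

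In monocytes and macrophages, with 5.32% of all genes called, the ligand called was Pvr, which TIGIT and CD226 bind, 1 of 11 that passed. It stood at 22.9 CPM in tumors and 1.87 in mucosa on average, the latter from 1 UMI, so no fold is given. Lilrb4a rose there too, by 1.29 ± 0.22, to 333 CPM on average, 1 of 6 co-inhibitory receptors that passed, and 8 of the 15 stress genes rose. It was also called higher in epithelial cells (7.14 CPM against 0.0473 in mucosa), plasma cells (3.46 against 0.398) and γδ T cells (80.6 against 27.9). The part of monocyte and macrophage transcripts in its changes in T cells and the other classes was not tested. In NK and innate lymphoid cells (25.3% of genes called) Cd160, a receptor of HVEM, fell by 3.36 ± 0.25 on the log2 scale, 1 of 3 that fell among 6 that passed, Lilrb4a rose by 1.52 ± 0.25, the 1 that rose, and all 15 stress genes rose. In B cells (40.1% called) Btla, another HVEM receptor, and Lilrb4a rose, by 0.77 ± 0.22 and 2.59 ± 0.87, both of the 2 co-inhibitory receptors that passed. Lilrb4a was low there, at 22.4 CPM in tumors and 2.18 in mucosa on average. Ceacam1 fell by 1.86 ± 0.34, while 13 stress genes rose.

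In epithelial cells 6 of the 13 other ligands rose and 3 fell, where 64.9% of all genes were called. Vtcn1, which encodes the inhibitory ligand B7-H4, rose by 4.005 ± 0.34, from 0.712 to 13.9 CPM, and Ceacam1, an adhesion molecule of colonocytes, fell by 2.57 ± 0.26 on the log2 scale, from 909 to 186 CPM. In conventional CD4 T cells (3.42% called), 2 of the 6 other co-inhibitory receptors that passed rose, Klrc1, an NK cell receptor, and Lilrb4a, the latter by 3.01 ± 0.42. Klrc1 stood at 85.7 CPM in tumors and 2.37 in mucosa on average, the mucosal value from 1 UMI, so no fold is given for it. Of the 6 T cell state genes that passed, 2 fell and 4 were not called. Tcf7, a factor of naive and memory cells, fell by 2.17 ± 0.30 on the log2 scale and Tox, a factor of exhausted cells, by 2.52 ± 0.70. Icos rose by 0.92 ± 0.22, the 1 of 3 co-stimulatory receptors called, and 2 of the 15 stress genes were higher.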

How the data were processed

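The authors aligned 10x Genomics 3′ libraries to mm10 with Cell Ranger, version 6.0.0 per the labels, while the paper's methods name an earlier version. They deposited filtered matrices of UMI counts per gene and cell, which are raw whole numbers. From these counts, cells with at least 500 UMIs, 200 genes and at most 25% mitochondrial UMIs were kept, doublets were removed by a simulated-doublet score at 0.8% per 1000 cells, and cells were clustered on 30 principal components of 2000 variable genes (20 neighbors, leidenalg 0.10.2, resolution 1), from which the members and pathway genes were left out. Clusters were named from marker lists.

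UMIs were summed per library and class, wherever a library held 20 or more such cells, and COT was tested against Adj over all genes with edgeR 4.0.16 (quasi-likelihood test, TMM, filterByExpr, Benjamini-Hochberg adjustment, called at 0.05) in R 4.3.3. The test was checked on simulated counts with 200 changed genes and recovered 79.6% of 2-fold and 100% of 4-fold changes in T cells (10072 genes), and 12.5% and 33.7% in monocytes and macrophages (12125 genes). Mucosa and tumors with the same animal code come from 1 animal, so the code pairs tissues by design, whereas replicate numbers do not. Deviations from the tissue means within a code correlated at 0.105 to 0.242 in T cells and 0.065 to 0.078 in whole libraries. The pathway genes named were taken from those that, in each list and comparison, were the called genes with the largest and the smallest log2 fold change, and not all of these are printed. Members and lists were chosen with earlier results of these data known. Depth was 57221300 to 116133079 UMIs per library, and intervals cover counting error only. Alternatives were RLE size factors, DESeq2 1.42.0, no filter on low counts, the animal code as a block, tumors summed per animal, other limits on cells, doublets kept, resolution 2 and each library left out.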

Additional observations from a re-analysis of the deposited data

Results flagged for a closer look

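Among 155 sets of up to 10 tumor values of a member in a class, 12 held a tumor far from the others by Dixon's test, which chance does for about 1 set in 20. COT 9 had 4 of them: 375 CPM of Cd274 in Spp1 macrophages (next tumor 260), 288 CPM of Cd274 in dendritic cells (next 187), 24.9 CPM of Lag3 in plasma cells (next 8.13) and 32.4 CPM of Vsir in B cells (next 18.6). COT 8 stood apart with 202 CPM of Cd274 in regulatory T cells (next 109) and 75.7 CPM of Havcr2 in C1q macrophages (next 53.0). COT 10 stood apart with 75.2 CPM of Pdcd1lg2 in type 2 dendritic cells (next 28.2) and 2.88 CPM of Cd86 in plasma cells (next 1.13). COT 2 had 3.47 CPM of Pdcd1lg2 in plasma cells and 2.65 CPM of Ctla4 in C1q macrophages, COT 7 had 17.4 CPM of Tigit in conventional CD4 T cells, and COT 5 had 4.81 CPM of Cd80 in T cells.

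By a test of the difference itself, the change of Ctla4 between tissues was larger in γδ T cells than in conventional CD4 T cells by 1.25 on the log2 scale, in 8 tumors and 2 mucosal libraries with at least 20 cells of both. The other 2 pairs of sub-types did not pass for Ctla4. The same test also passed for Pdcd1, at 4.08 for γδ against conventional CD4 T cells and 6.23 for γδ against CD8 αβ T cells. In the libraries tested, Pdcd1 was below the filter in γδ T cells (31 tumor and 17 mucosal UMIs) and in CD8 αβ T cells (2 and 54), so neither value is read as a size or a difference.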

How the results depend on the processing

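Of 1393 values of the 65 member tests under the alternatives, 1351 kept their direction and side of the threshold. Tigit turned from 2.03 to -0.0555 in whole libraries when cells other than epithelial were used. With tumors summed per animal, 0 members were called in plasma cells and 2 in monocytes and macrophages (352 genes, against 657), and a 10% mitochondrial limit left 1 member in plasma cells. Doublets kept gave 3029 genes in plasma cells (1957 before) and let the thinned myeloid differences pass for Cd274 (7.79 points) and Cd80 (3.68). With no filter on low counts, 438 genes were called in conventional CD4 T cells (287 before), 183 in CD8 αβ T cells (81 before, 4 members) and 1488 in γδ T cells (694 before, 3 members). In conventional CD4 T cells DESeq2 and resolution 2 called 2 members each. The thinned difference of Lag3 was -7.03 points without thinning and that of Havcr2 4.58 at 2000 UMIs, and neither passed. Of 230 levels of a member in a class, 59 moved by more than the SD between animals (or at all, where that SD was 0 or missing) with doublets kept, 50 averaged over cells and 0 averaged over tumors. Averaged over cells, Tigit in tumor T cells was 9.87 CPM and Havcr2 in tumor monocytes and macrophages 109.7. In monocytes and macrophages 550 genes were higher and 107 lower, against 353 and 158 with RLE size factors and 430 and 334 with DESeq2, and in CD8 αβ T cells 54 and 27 against 50 and 15 with DESeq2. The causes were not tested.

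Leaving out a library gave 568 to 1165 genes in NK and innate lymphoid cells, 1027 to 2110 genes and 1 to 2 members in plasma cells, 144 to 724 genes and 0 to 4 members in monocytes and macrophages, 50 to 342 genes in conventional CD4 T cells, and 441 to 782 genes and 1 to 2 members in γδ T cells. The lowest counts came without Adj 1 (NK, monocytes and macrophages, CD4), Adj 2 (plasma cells) and Adj 3 (γδ). In monocytes and macrophages, CD4 and CD8 αβ T cells, mucosa is then 1 library, assumed to vary as the tumors do. Leaving out an animal, where 2 animals cannot pass, gave thinned differences in T cells of 4.76 to 5.14 points for Pdcd1, 30.2 to 31.6 for Ctla4, -5.24 to -4.60 for Lag3, 0.657 to 0.780 for Tigit and 2.52 to 3.26 for Havcr2.

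With the animal code as a replicate block, Pdcd1lg2 in T cells (0.38) and Lag3 in plasma cells were called, and no other call changed among the 65 member tests. The Lag3 call rested on 5 mucosal UMIs and is not read as a result. Members below the filter that the block let be tested and called were Cd80 in B cells (-1.84) and Pdcd1 in γδ T cells, which makes 2 members there. This Pdcd1 call came through the tumors, where the gene was high. Neither the Cd80 nor the Pdcd1 call is read as a result. With the tumors of an animal summed, Pdcd1 was again below the filter in γδ T cells. The number of cells limits the mucosal myeloid values, which rest on 20 and 63 monocytes and macrophages in the summed test and on 37 and 79 cells, dendritic cells included, in the thinned shares. Depth limits genes with few mucosal UMIs, such as Havcr2, Cd80 and Pdcd1lg2 in epithelial cells (3, 4 and 5).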

Other observations

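Some mucosal sub-types were too small for a test and are given as pooled values with 95% exact Poisson intervals, which cover counting error only. The 33 mucosal Il17a-producing T cells held 204 CPM of Pdcd1 (127 to 312) and 127 CPM of Ctla4 (67.4 to 216). The 13 mucosal regulatory T cells held 939 CPM of Ctla4 (638 to 1333).

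Across the 18 cell types of the tumors, which share libraries and depth, the genes whose levels were most like those of a member are given as a description. Il2ra, Cd247 and Scrt1 were most like Pdcd1 (Pearson's r of 0.955, 0.955 and 0.952 on the log2 scale), and Lat, Xlr4c and Icos most like Ctla4 (0.940, 0.932 and 0.918). Sla2, Tspyl4 and Ldlrad4 were most like Lag3 (0.940, 0.924 and 0.878), Sh2d1a, Cd28 and Cd27 most like Tigit (0.938, 0.933 and 0.926), and Cysltr1, Pqlc1 and Vim most like Havcr2 (0.860, 0.848 and 0.846).

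Among the ligands, Ccrl2, Gbp5 and Nfil3 were most like Cd274 (0.834, 0.811 and 0.791) and Traf1, Nr4a3 and Cnn2 most like Pdcd1lg2 (0.904, 0.870 and 0.8499). D930030I03Rik, Il1b and Gm34084 were most like Cd80 (0.920, 0.885 and 0.868), Cd40, Gm6377 and Irf5 most like Cd86 (0.901, 0.841 and 0.821), and Itgb2, Fxyd5 and Cd53 most like Vsir (0.932, 0.865 and 0.826).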
